A study of Homo sapiens with 9 samples.

Results

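The pluripotency programme beyond SOX2 was followed in 10 genes as H9 human embryonic stem cells were directed to neuroectoderm or to mesendoderm. The genes are the transcription factors NANOG, PRDM14, ZSCAN10, SALL4 and ZFP42, the chromatin-associated proteins DPPA2, DPPA4 and UTF1, the RNA-binding protein L1TD1 and the deubiquitinase USP44. The genes were chosen by name, and all 10 were present among the 21417 gene symbols of the RPKM table. Where a gene had several transcripts, the one with the highest mean was taken. L1TD1 was listed with 2 transcripts and USP44 with 3, whose values differed from those of the transcript used by at most 2.86% and 5.10%. A mean of 0.5 RPKM over the libraries was needed for testing, which 9 of the 10 reached and UTF1 did not.

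The neuroectoderm group held 3 libraries of H9 cells at day 5 after differentiation with NOGGIN at 200 nM, which blocks BMP signals, and SB431542 at 10 µM, which inhibits the activin and Nodal receptors. The mesendoderm group held 3 libraries at day 5 in mTeSR1 with hBMP4 at 5 ng/ml. The hESC group held 3 libraries of undifferentiated H9 cells at day 0, kept in mTeSR1 on Matrigel. All libraries came from this 1 cell line, and day and treatment changed together between hESC and either lineage, so their parts cannot be told apart. Whether the 3 libraries of a group were separate cultures is not stated in the labels. The p-values therefore rest on library spread that may be technical. RPKM scales reads to transcript length and to library size, so levels of different genes can be set side by side. In RNA from whole cultures, fewer cells with a transcript and less of it per cell cannot be told apart.

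Human pluripotent cells are held in their state by a small network of transcription factors that bind their own and each other's genes. NANOG and SALL4 work in it with the octamer-binding factor of the POU family and with SOX2, and PRDM14 represses lineage genes and recruits chromatin-modifying complexes. Lineage signals dismantle the network, but some of its factors also act in the early embryo outside pluripotent cells, among them SOX2 in neural cells and SALL4 in several progenitors.

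The libraries matched their labels by most defining markers. Of the 10 neuroectoderm markers 8 were tested, and all 8 were higher in neuroectoderm than in hESC, while the forebrain genes LHX2 and SIX3 averaged 0.123 and 0.0833 RPKM there. Of the 12 mesendoderm markers 10 were tested and were higher in mesendoderm than in hESC, while the endoderm genes FOXA2 and SOX17 averaged 0.0367 and 0.22 RPKM there. The mesendoderm libraries also carried markers of amnion and trophoblast, 9 of 10 of which were tested and higher than in hESC. Over all tested genes 21.9% were higher in neuroectoderm than in hESC, and 17% were higher in mesendoderm than in hESC. Most tested markers of the 3 lists reached the minimum only through the group they mark, so these counts describe the cultures and are no test of them. The sum over those 10 markers was 157.76, 100.26 and 136.26 RPKM in the 3 mesendoderm libraries, against 6.10 to 8.32 RPKM in hESC, with the trophoblast hormone gene CGA near 0 in mesendoderm (0.0433 RPKM). Their part in the mesendoderm values below was not tested. The reads that form the denominator were estimated, from the steps between low values, at 36.9 to 69.9 M in each library. Read numbers given below rest on this estimate. Deviations from the group means in hESC replicate 2, neuroectoderm replicate 1 and mesendoderm replicate 1 ran together across genes, with Pearson correlations of 0.79, 0.40 and 0.39 between them, so results are also given without these 3 libraries where that changes a call.

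The promoters of NANOG and ZFP42 are shown as examples of genes that fell in neuroectoderm and had higher levels in mesendoderm than there. PRDM14, ZSCAN10, DPPA2, DPPA4 and L1TD1 had the same order and are not printed. RefSeq windows in build GRCh38.p14, of 250 bases before and 50 bases after the start of the gene, matched 7 of the 10 genes. The 250 bases before the start are printed for NANOG (chr12:7789152-7789401, plus strand) and ZFP42 (chr4:187995521-187995770, plus strand), with the capitals marking the words found. In NANOG these are the octamer core TTTGCAT and the SOX word ACAATG, and in ZFP42 the KLF word CCACGCCC.
NANOG: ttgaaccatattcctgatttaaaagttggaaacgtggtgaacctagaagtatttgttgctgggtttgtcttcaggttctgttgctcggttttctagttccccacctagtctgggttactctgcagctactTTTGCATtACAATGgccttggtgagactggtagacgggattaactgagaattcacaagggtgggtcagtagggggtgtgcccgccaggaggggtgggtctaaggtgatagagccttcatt
ZFP42: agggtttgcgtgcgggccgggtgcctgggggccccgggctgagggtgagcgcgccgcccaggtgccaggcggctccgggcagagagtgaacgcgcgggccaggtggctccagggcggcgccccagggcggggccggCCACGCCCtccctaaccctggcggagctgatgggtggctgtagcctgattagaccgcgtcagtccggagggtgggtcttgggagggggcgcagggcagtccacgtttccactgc

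Both strands were searched, and the printed letters are reverse complements of the words. The octamer was searched as ATGCAAAT, which 1.774% of all 35116 windows held. Its core was searched as ATGCAAA, which overlaps every octamer, and 4.462% of windows held it. The SOX word CATTGT was present in 10.781% of windows. The KLF word GGGNGTGG was present in 17.157%. The word TATAAA was present in 11.53%, and among the 7 windows in NANOG alone, at -1 to 5, across the start and not upstream where a TATA box lies, so it is not marked. In NANOG the octamer core lay at -120 to -114 and the SOX word at -112 to -107 from the start, 1 base apart, which is the arrangement known as the joint element of the octamer-binding factor and SOX2. That arrangement was present in 3 windows (0.009%), those of NANOG, NRARP and LOC105370047. The KLF word lay at -114 to -107 in ZFP42, and a further one at -125 to -118 in DPPA2. No other window of the 7 held the octamer core or the SOX word. A match describes the letters in this window and is no measurement of binding.

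In neuroectoderm 8 of the 9 tested genes fell and SALL4 alone missed the threshold (limma on log2(RPKM + 1), Benjamini-Hochberg adjusted p under 0.05 over 14473 genes). Across all tested genes 22.3% were lower and 21.9% higher in neuroectoderm than in hESC. The median log2 difference of the 9 genes was -2.41, beside -0.02 over all tested genes. In mesendoderm 6 of the 9 fell and SALL4, ZFP42 and DPPA2 missed the threshold, where 18.1% of all tested genes were lower and 17% higher than in hESC. The median log2 difference of the 9 genes was -1.08, again beside -0.02 over all tested genes. Between the lineages 7 of the 9 were lower in neuroectoderm than in mesendoderm and 1, USP44, was higher, where 24.1% of all tested genes were lower and 24% higher. Both lineages were compared with the same 3 hESC libraries. Every difference is given on the log2(RPKM + 1) scale, which understates the change of genes with low values.

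**Figure D1:**
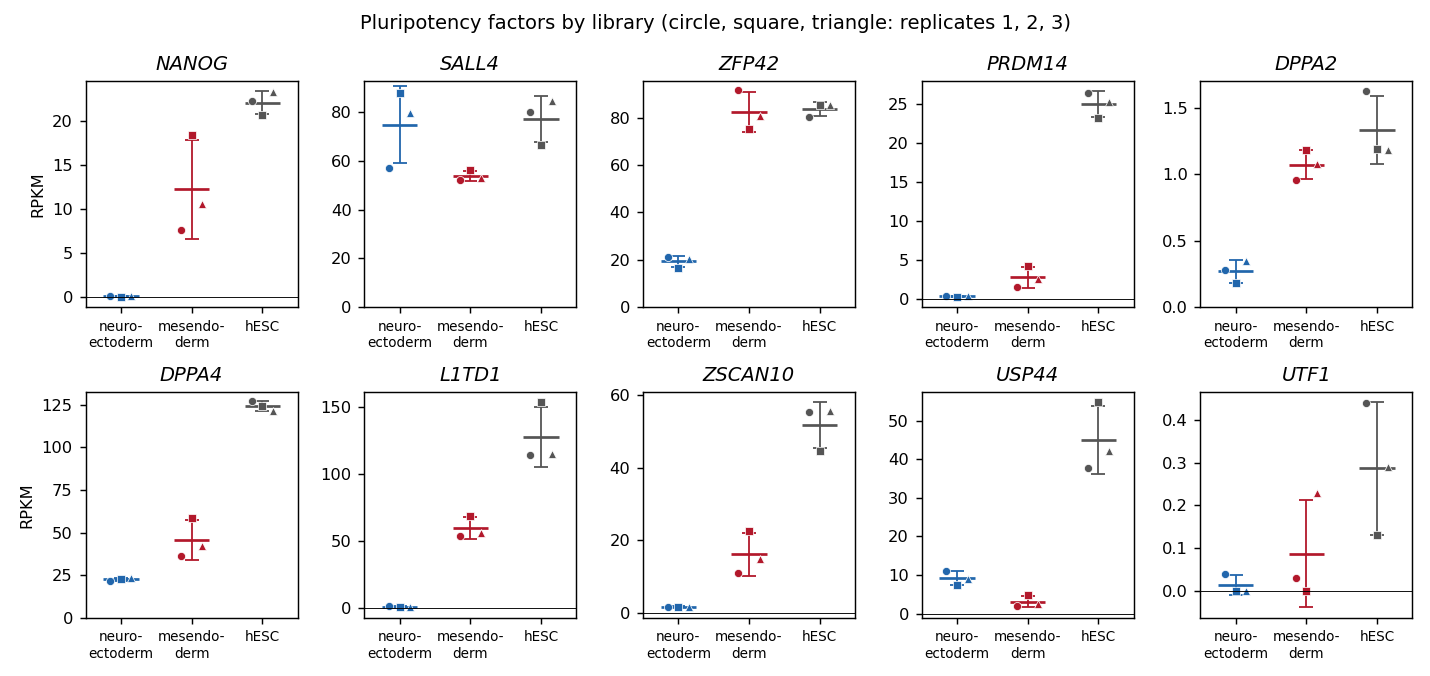
Levels of the 10 genes in RPKM (vertical axes, linear, one scale per gene) in neuroectoderm, mesendoderm and hESC. Points are single libraries, with circles, squares and triangles for replicates 1, 2 and 3, and the bars give the mean and SD of 3 libraries. NANOG, PRDM14, ZSCAN10, DPPA4 and L1TD1 step up without overlap through neuroectoderm, mesendoderm and hESC, USP44 is lowest in mesendoderm, and ZFP42 is low in neuroectoderm only.

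NANOG, a homeodomain factor of the core network, was nearly absent from neuroectoderm and was kept in part in mesendoderm. Its level was 0.18, 0.08 and 0.12 RPKM in the neuroectoderm libraries, 7.68, 18.42 and 10.55 RPKM in the mesendoderm libraries, and 22.21, 20.67 and 23.21 RPKM in the hESC libraries. The groups did not overlap, and mesendoderm replicate 2 lay close to the lowest hESC library. NANOG averaged 0.127 ± 0.0503 RPKM in neuroectoderm and 22.0 ± 1.28 RPKM in hESC (SD, n = 3 each), a log2 difference of -4.35 ± 0.24 (SE, adjusted p = 1.67e-06). This was the 15th lowest log2 difference of the 14473 tested genes. In mesendoderm it averaged 12.2 ± 5.56 RPKM (SD, n = 3), and the log2 difference from hESC was -0.88 ± 0.24 (SE, adjusted p = 0.0213). This call was lost without hESC replicate 1 (adjusted p = 0.0596), hESC replicate 3 (0.0671), mesendoderm replicate 1 (0.0544) or mesendoderm replicate 3 (0.0742). Neuroectoderm was lower than mesendoderm, with a log2 difference of -3.47 ± 0.24 (SE, adjusted p = 4.52e-06). GENCODE v29 names 9 pseudogenes of NANOG, and reads shared with such copies make its level uncertain.

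PRDM14, a zinc finger protein with a PR domain that guards the pluripotent state, fell in both lineages. It was listed at 0.33, 0.28 and 0.38 RPKM in neuroectoderm, 1.56, 4.23 and 2.61 RPKM in mesendoderm, and 26.51, 23.31 and 25.36 RPKM in hESC. The groups did not overlap, and mesendoderm replicate 2 was the highest of its group. The log2 difference from hESC was -4.29 ± 0.22 in neuroectoderm (SE, adjusted p = 9.61e-07) and -2.84 ± 0.22 in mesendoderm (SE, adjusted p = 1.58e-05). Neuroectoderm kept 1.32% of the hESC mean and mesendoderm 11.2%. The difference of neuroectoderm from mesendoderm was -1.45 ± 0.22 (SE, adjusted p = 5.53e-04).

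ZSCAN10, a zinc finger factor with a SCAN domain that is known in mouse embryonic stem cells as a partner of the core network, followed the same order. Its level was 1.77, 1.52 and 1.72 RPKM in neuroectoderm, 10.99, 22.6 and 14.87 RPKM in mesendoderm, and 55.3, 44.45 and 55.5 RPKM in hESC. No group overlapped another. The log2 difference from hESC was -4.30 ± 0.22 in neuroectoderm (SE, adjusted p = 1.03e-06), and -1.67 ± 0.22 in mesendoderm (SE, adjusted p = 4.18e-04). Neuroectoderm was lower than mesendoderm, with a log2 difference of -2.63 ± 0.22 (SE, adjusted p = 1.41e-05). PRDM14 and ZSCAN10 had the 18th and 17th lowest log2 differences of all tested genes in neuroectoderm.

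SALL4, a zinc finger factor that binds the NuRD repressor complex, was the gene with the highest level left in neuroectoderm. Its level was 57.16, 87.87 and 79.83 RPKM in neuroectoderm, 52.19, 56.27 and 53.16 RPKM in mesendoderm, and 80.21, 66.71 and 84.79 RPKM in hESC. The neuroectoderm and hESC libraries overlapped, while every mesendoderm library lay below all libraries of the other groups. The log2 difference of neuroectoderm from hESC was -0.06 ± 0.18 (SE, adjusted p = 0.820), with a 95% interval of -0.46 to 0.35, and its sign turned under several alternatives. In mesendoderm SALL4 averaged 53.9 ± 2.13 RPKM, against 77.2 ± 9.40 RPKM in hESC (SD, n = 3 each), a log2 difference of -0.51 ± 0.18 with an adjusted p of 0.0560 in limma. That difference passed the threshold without neuroectoderm replicate 1 (adjusted p = 0.00766), without neuroectoderm replicate 2 (0.0458) and without hESC replicate 2, neuroectoderm replicate 1 and mesendoderm replicate 1 together (0.00263). It also passed with quantile normalisation (0.00442), with small RNA genes left out and libraries rescaled (0.0209), with summed transcripts (0.0483), with no mean-variance trend (0.0425) and with only the 2 groups compared in the fit (0.0141). It missed the threshold with the replicate number as a block (0.0966) and without any single hESC or mesendoderm library (0.0517 to 0.170). Neuroectoderm stood above mesendoderm by 0.45 ± 0.18 (SE, adjusted p = 0.0672), which passed without neuroectoderm replicate 1 (0.00376) and without those 3 libraries (0.00145), and with quantile normalisation (5.23e-04). GENCODE v29 names 5 pseudogenes of SALL4, and shared reads cannot be told apart in the RPKM values.

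ZFP42, also called REX1, is a zinc finger factor related to YY1 and a classic marker of the undifferentiated state. It fell in neuroectoderm and did not pass the test in mesendoderm. Its level was 21.11, 16.46 and 20.32 RPKM in neuroectoderm, 91.8, 75.37 and 80.63 RPKM in mesendoderm, and 80.36, 85.32 and 85.41 RPKM in hESC. The mesendoderm libraries overlapped the hESC libraries on both sides, and the neuroectoderm libraries stood far below both groups. The log2 difference of neuroectoderm from hESC was -2.07 ± 0.14 (SE, adjusted p = 4.37e-06), and from mesendoderm -2.05 ± 0.14 (SE, adjusted p = 3.20e-06). That of mesendoderm from hESC was -0.02 ± 0.14 (SE, adjusted p = 0.918), with a 95% interval of -0.33 to 0.29. In mesendoderm ZFP42 averaged 98.7% of its hESC mean and ranged from 90.05% to 109.68%, while NANOG ranged from 34.86% to 83.61%.

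**Figure D2:**
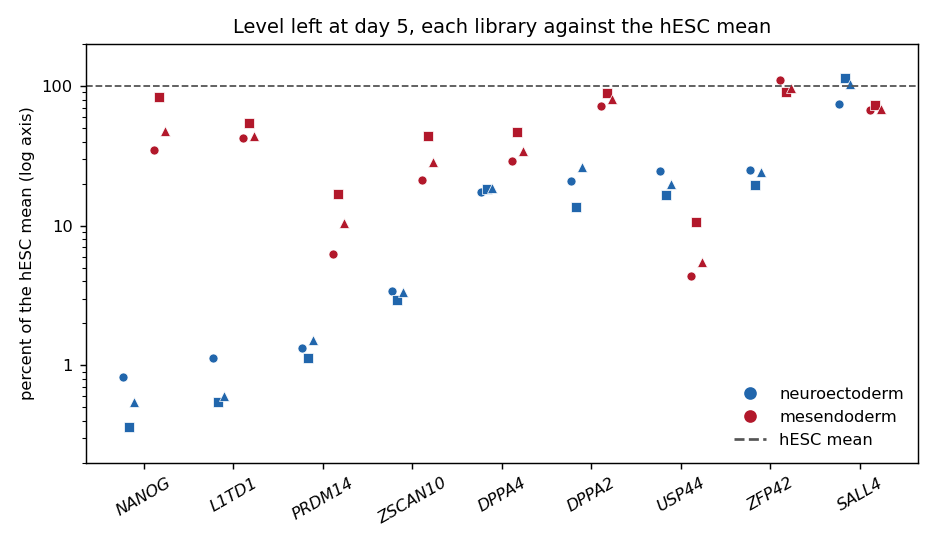
Level of 9 genes in each day 5 library as a percent of the hESC mean (vertical axis, log scale), with neuroectoderm in blue, mesendoderm in red and replicates 1, 2 and 3 as circles, squares and triangles. NANOG and L1TD1 keep at most 1.13% in any neuroectoderm library and at least 34.86% in any mesendoderm library, while for USP44 the blue points lie above the red ones.

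DPPA2 and DPPA4 are related SAP-domain proteins that bind chromatin together and prime bivalent developmental promoters, as described in mouse. Their genes are neighbours, with starts 21029 bases apart in the RefSeq windows. Their levels were far apart. DPPA4 had 21.62, 22.86 and 23.06 RPKM in neuroectoderm, 36.09, 58.51 and 42.3 RPKM in mesendoderm, and 127.3, 124.03 and 121.12 RPKM in hESC. The groups did not overlap, and the neuroectoderm and hESC libraries were tight. The log2 difference from hESC was -2.41 ± 0.17 in neuroectoderm (SE, adjusted p = 6.60e-06) and -1.45 ± 0.17 in mesendoderm (SE, adjusted p = 1.99e-04). Neuroectoderm was lower than mesendoderm, with a log2 difference of -0.96 ± 0.17 (SE, adjusted p = 0.00149).

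DPPA2 was low throughout. It was listed at 0.28, 0.18 and 0.35 RPKM in neuroectoderm, 0.96, 1.18 and 1.08 RPKM in mesendoderm, and 1.63, 1.19 and 1.18 RPKM in hESC. The mesendoderm and hESC libraries touched, and the neuroectoderm libraries lay below both. On the GENCODE v29 transcript length of 1383 bases the neuroectoderm values amount to 15.8, 17.4 and 19.9 reads, the mesendoderm values to 61.9, 60.2 and 59.7 reads and the hESC values to 91.7, 75.7 and 77.5 reads. The log2 difference of neuroectoderm was -0.87 ± 0.11 from hESC (SE, adjusted p = 1.83e-04) and -0.71 ± 0.11 from mesendoderm (SE, adjusted p = 5.52e-04). That of mesendoderm from hESC was -0.17 ± 0.11 (SE, adjusted p = 0.261), with a 95% interval of -0.41 to 0.07. As a ratio of means DPPA2 was 4.94-fold lower in neuroectoderm than in hESC, close to the 5.51-fold of DPPA4, while its log2 difference is compressed by the pseudocount of 1. GENCODE v29 names 4 pseudogenes of DPPA2.

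UTF1, a chromatin protein of undifferentiated cells that occupies bivalent genes, lay at the edge of detection. It was listed at 0.04, 0 and 0 RPKM in neuroectoderm, 0.03, 0 and 0.23 RPKM in mesendoderm, and 0.44, 0.13 and 0.29 RPKM in hESC. At the GENCODE v29 length of 1157 bases these values amount to at most 1.9 reads in neuroectoderm, 10.6 reads in mesendoderm and 20.7 reads in hESC. A count of 3 reads would give 0.0371 to 0.0703 RPKM in a library, a limit that covers counting error only. The neuroectoderm libraries lay below the hESC libraries, and mesendoderm replicate 3 fell within them. With no filter on low values the adjusted p in limma was 0.0280 for neuroectoderm against hESC, 0.106 for mesendoderm against hESC and 0.506 for neuroectoderm against mesendoderm.

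L1TD1, an RNA-binding protein derived from a LINE-1 element that acts with LIN28 in human embryonic stem cells, had the largest fall of the 9 tested genes in neuroectoderm on the log2(RPKM + 1) scale, while NANOG had the largest as a ratio of means (174-fold for NANOG and 132-fold for L1TD1). Its level was 1.44, 0.7 and 0.77 RPKM in neuroectoderm, 54.06, 68.96 and 55.77 RPKM in mesendoderm, and 114.27, 153.79 and 114.92 RPKM in hESC. No group overlapped another, and neuroectoderm replicate 1 was the highest of its group. The log2 difference of neuroectoderm from hESC was -6.03 ± 0.19 (SE, adjusted p = 8.74e-08), the 2nd lowest of the 14473 tested genes. In mesendoderm the log2 difference from hESC was -1.08 ± 0.19 (SE, adjusted p = 0.00195), and the level averaged 46.7% of the hESC mean. Neuroectoderm was lower than mesendoderm, with a log2 difference of -4.95 ± 0.19 (SE, adjusted p = 1.16e-07). In GENCODE v29 a gene on the opposite strand (AL162739.1) overlaps L1TD1, and the use of strand in counting is not given in the sources used here.

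USP44, a deubiquitinase that acts on histone H2B and in the spindle checkpoint, fell in both lineages but had the reverse order between them. Its level was 11.07, 7.46 and 8.9 RPKM in neuroectoderm, 1.96, 4.78 and 2.47 RPKM in mesendoderm, and 37.8, 54.82 and 42.16 RPKM in hESC. Every neuroectoderm library lay above every mesendoderm library, and all 6 lay below hESC. The log2 difference from hESC was -2.18 ± 0.26 in neuroectoderm (SE, adjusted p = 1.56e-04) and -3.54 ± 0.26 in mesendoderm (SE, adjusted p = 1.17e-05), the 13th lowest there. Neuroectoderm exceeded mesendoderm by 1.36 ± 0.26 (SE, adjusted p = 0.00214), with a 95% interval of 0.78 to 1.95. Without hESC replicate 2, neuroectoderm replicate 1 and mesendoderm replicate 1 this was 1.03 (adjusted p = 0.00645).

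**Figure D3:**
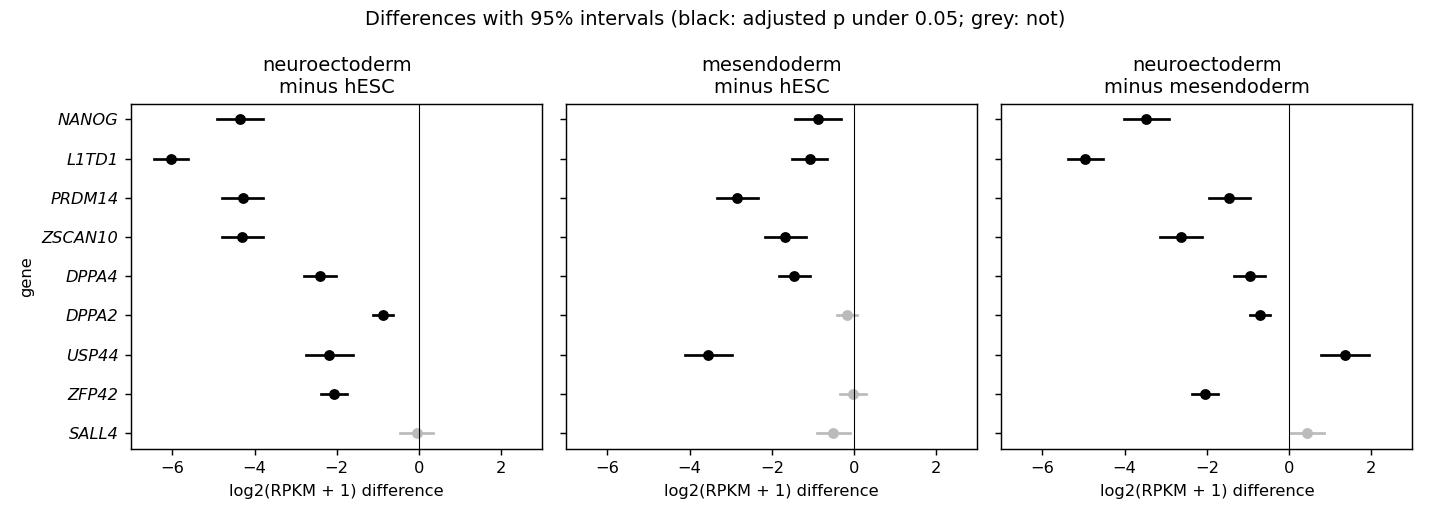
Log2(RPKM + 1) differences of 9 genes (horizontal axes) in neuroectoderm minus hESC, mesendoderm minus hESC and neuroectoderm minus mesendoderm, with 95% intervals from the linear model. Black marks an adjusted p under 0.05 and grey the rest. SALL4 is grey in each panel, ZFP42 and DPPA2 are grey in mesendoderm minus hESC, and USP44 alone lies to the right of 0 in black.

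The mesendoderm libraries were not alike in these genes. Mesendoderm replicate 2 had the highest level of the 3 mesendoderm libraries for 8 of the 10 genes, and mesendoderm replicate 1 the lowest for 8. The ratio of replicate 2 to the mean of the other mesendoderm libraries was 2.16 for USP44, 2.03 for PRDM14, 2.02 for NANOG, 1.75 for ZSCAN10 and 1.49 for DPPA4. It was 1.07 for SALL4 and 0.874 for ZFP42, so replicate 2 lay near the other libraries for these genes. SOX2 followed the first set, with 1.25, 5.54 and 2.55 RPKM in mesendoderm replicates 1, 2 and 3 and a ratio of 2.92. Lineage genes of the same libraries moved differently, with ratios of 0.509 for HAND1 and 0.355 for CDX2, beside 1.47 for MIXL1 and 0.992 for T. The summed amnion and trophoblast markers had a ratio of 0.682, and the summed mesendoderm markers 0.95. The part of cell composition in this spread was not tested.

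**Figure D4:**
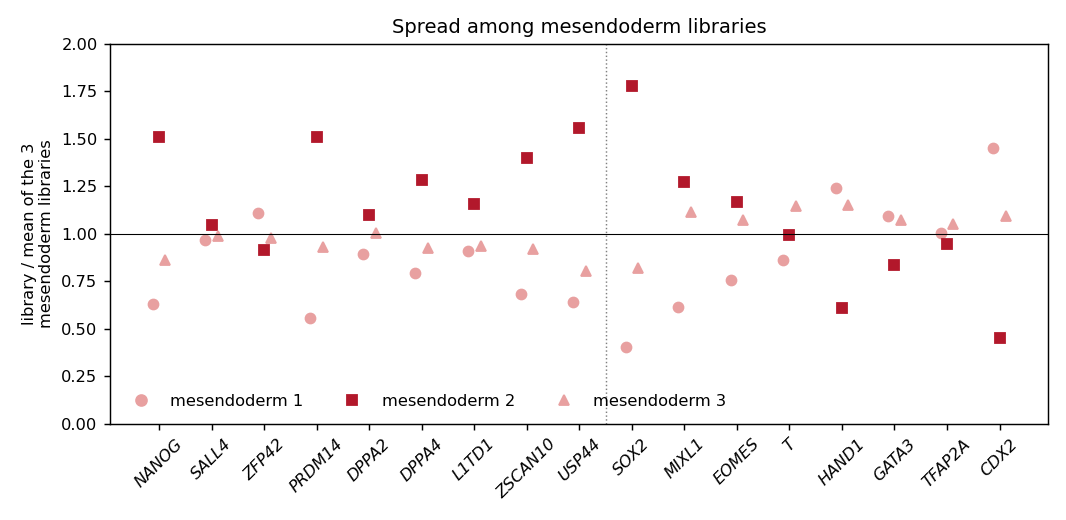
Level in each mesendoderm library divided by the mean of the 3 mesendoderm libraries (vertical axis, linear), for 9 pluripotency genes left of the dotted line and for SOX2, mesendoderm, amnion and trophoblast genes right of it. Replicate 2 (squares) is highest for every gene left of the dotted line but ZFP42, and for SOX2, MIXL1 and EOMES. It is lowest for ZFP42, HAND1, GATA3, TFAP2A and CDX2, and lies between the other libraries for T.

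SOX2, the core factor left out of the set, showed the opposite lineage order to NANOG. It averaged 42.6 ± 8.19 RPKM in neuroectoderm, 3.11 ± 2.20 RPKM in mesendoderm and 63.3 ± 10.5 RPKM in hESC (SD, n = 3 each). Its log2 difference of neuroectoderm from mesendoderm was 3.52 ± 0.35 (SE, adjusted p = 3.89e-05), against -3.47 for NANOG. Among the 10 genes USP44 and, short of the threshold, SALL4 had the sign of SOX2 in this comparison.

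Of 19 further regulators of human pluripotency, 11 fell and 1 rose in neuroectoderm, where 22.3% of all tested genes fell and 21.9% rose, with a median log2 difference of -1.41. In mesendoderm 14 fell and 0 rose, where 18.1% of all tested genes fell and 17% rose, with a median of -0.98. Between the lineages 6 were higher and 5 lower in neuroectoderm, near the 24% and 24.1% of all tested genes. The de novo DNA methyltransferase DNMT3B averaged 22.5 RPKM in neuroectoderm, 67.0 RPKM in mesendoderm and 203 RPKM in hESC, log2 differences from hESC of -3.15 ± 0.20 and -1.60 ± 0.20 (SE, adjusted p = 3.91e-06 and 3.26e-04). POLR3G, the stem cell form of an RNA polymerase III subunit, averaged 0.68 RPKM in neuroectoderm, 3.60 RPKM in mesendoderm and 27.7 RPKM in hESC, with differences of -4.09 ± 0.18 and -2.67 ± 0.18 (SE, adjusted p = 4.51e-07 and 8.18e-06). The ETS factor ETV4 fell in neuroectoderm, with a difference of -4.37 ± 0.14 (SE, adjusted p = 1.07e-07), while its difference in mesendoderm was -0.08 ± 0.14 (SE, adjusted p = 0.692).

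Of 14 signals and surface proteins of pluripotent cells 13 were tested. In neuroectoderm 11 fell and 0 rose (median -1.92), where 22.3% of all tested genes fell and 21.9% rose. In mesendoderm 6 rose and 4 fell (median 0.22), where 17% of all tested genes rose and 18.1% fell. FGF4 reached the minimum only through mesendoderm and LEFTY1 only through hESC. Their directions in mesendoderm against hESC were therefore largely set by the filter. The Nodal co-receptor TDGF1 averaged 0.06 RPKM in neuroectoderm, 23.7 RPKM in mesendoderm and 56.3 RPKM in hESC, falling in both lineages (-5.76 ± 0.25 and -1.29 ± 0.25, SE, adjusted p = 4.49e-07 and 0.00418). E-cadherin (CDH1) averaged 0.27 RPKM in neuroectoderm, 98.8 RPKM in mesendoderm and 54.7 RPKM in hESC, so it fell in neuroectoderm (-5.46 ± 0.12, adjusted p = 1.61e-08) and rose in mesendoderm (0.84 ± 0.12, adjusted p = 6.97e-04). The adhesion protein EPCAM had the same signs, with -4.36 ± 0.11 and 1.22 ± 0.11 (SE, adjusted p = 2.96e-08 and 3.92e-05). The tetraspanin CD9 did too, with -4.28 ± 0.24 and 1.08 ± 0.24 (SE, adjusted p = 1.77e-06 and 0.00828).

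Genes of the naive, preimplantation-like state were mostly too low to test. Only KLF5, TBX3, TFAP2C and SUSD2, 4 of 16, reached 0.5 RPKM on average. Each was highest in mesendoderm, and KLF5 and TBX3 reached the minimum through that group, so the direction of the list there was largely set by the filter. Of these genes TFAP2C and TBX3 are also known in amnion or mesoderm. TBX3 averaged 0.05 RPKM in neuroectoderm, 29.6 RPKM in mesendoderm and 0.03 RPKM in hESC (mesendoderm against hESC 4.80 ± 0.27, SE, adjusted p = 2.37e-06). TFAP2C averaged 5.12 RPKM in neuroectoderm, 19.4 RPKM in mesendoderm and 1.04 RPKM in hESC, with differences from hESC of 1.57 ± 0.16 and 3.33 ± 0.16 (SE, adjusted p = 5.98e-05 and 1.03e-06). DPPA3 and DPPA5, which share a name but not a family with DPPA2 and DPPA4, stayed at 0.61 RPKM or below in every group. Of 9 germ cell markers 3 were tested. In neuroectoderm 1 was higher and 2 were lower than in hESC, where 21.9% of all tested genes were higher and 22.3% lower. In mesendoderm 1 was higher and 1 lower, where 17% of all tested genes were higher and 18.1% lower. TFAP2C was the one that rose. DAZL fell in both lineages, with 0.497 RPKM in neuroectoderm, 0.123 RPKM in mesendoderm and 1.39 RPKM in hESC (-0.67 ± 0.11 and -1.08 ± 0.11, SE, adjusted p = 0.00104 and 7.87e-05). DAZL reached the minimum only through hESC, so its direction was largely set by the filter. The receptor kinase KIT averaged 2.35 RPKM in neuroectoderm, 7.16 RPKM in mesendoderm and 7.44 RPKM in hESC, and fell in neuroectoderm (-1.33 ± 0.11, adjusted p = 1.94e-05), while its difference in mesendoderm was -0.04 ± 0.11 (adjusted p = 0.795).

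Of 18 paralogs of the 10 genes 10 were tested, and their counts of calls were near or below the shares over all tested genes. In neuroectoderm 2 rose and 2 fell, where 21.9% of all tested genes rose and 22.3% fell. In mesendoderm 1 rose and 2 fell, where 17% of all tested genes rose and 18.1% fell. SALL2 averaged 139 RPKM in neuroectoderm, 37.1 RPKM in mesendoderm and 126 RPKM in hESC, and fell in mesendoderm (-1.75 ± 0.16, SE, adjusted p = 4.37e-05). SALL3 had the opposite order, with 1.13 RPKM in neuroectoderm, 10.2 RPKM in mesendoderm and 8.23 RPKM in hESC, and fell in neuroectoderm (-2.12 ± 0.13, SE, adjusted p = 2.56e-06). USP49, the nearest relative of USP44 and also a histone H2B deubiquitinase, rose in neuroectoderm (0.69 ± 0.12, adjusted p = 0.00194) and fell in mesendoderm (-0.69 ± 0.12, adjusted p = 0.00258). It was higher in neuroectoderm than in mesendoderm by 1.38 ± 0.12 (SE, adjusted p = 2.24e-05), beside 1.36 for USP44.

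Among 23 tested chromatin partners, which include NuRD, PRC2 and NCOR subunits, the counts of calls were likewise near or below those shares. Of them 5 rose and 3 fell in neuroectoderm (21.9% and 22.3% of all tested genes), and 1 rose and 3 fell in mesendoderm (17% and 18.1% of all tested genes). The NuRD subunit GATAD2B averaged 9.08 RPKM in neuroectoderm and 4.91 RPKM in hESC, and rose by 0.77 ± 0.09 (SE, adjusted p = 1.89e-04). Another NuRD subunit, MTA3, averaged 14.6 RPKM in neuroectoderm and 25.8 RPKM in hESC, and fell, with a log2 difference of -0.84 ± 0.24 (SE, adjusted p = 0.0185). PRDM14 partner CBFA2T2 averaged 6.32 RPKM in neuroectoderm, 5.33 RPKM in mesendoderm and 3.74 RPKM in hESC, and rose in both lineages (0.63 and 0.42, adjusted p = 5.80e-04 and 0.00740).

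Genes whose pattern over the 9 libraries was most like that of each tested gene were ranked by the root mean square difference of log2(RPKM + 1), each gene centred on its own mean. For NANOG these were the long noncoding RNA ESRG (0.24), PMAIP1 (0.26) and FOXH1 (0.27), the last a partner of SMAD proteins in Nodal signalling. For PRDM14 they were POLR3G (0.16), LECT1 (0.24) and PIM2 (0.33), and for ZSCAN10 they were IFI30 (0.31), PPAP2C (0.31) and ESRG (0.35). ZFP42 was nearest to TDRP (0.10), the cholesterol synthesis enzyme HMGCS1 (0.11) and TMEM37 (0.14), and L1TD1 to the Nodal co-receptor TDGF1 (0.35), ESRP1 (0.36), which directs splicing in epithelia, and AP1M2 (0.63). USP44 was nearest to GPR176 (0.27), JAKMIP2-AS1 (0.35) and FEZF1 (0.35), which share its order of levels. GPR176 averaged 10.9 RPKM in neuroectoderm, 4.48 RPKM in mesendoderm and 70.9 RPKM in hESC. DPPA4 was nearest to GPR160 (0.10), PPP1R1B (0.13) and PPP2R2B (0.16), SALL4 to ZMYM3 (0.05), MAF1 (0.06) and GNB5 (0.06), and DPPA2 to NSUN2 (0.10), FAM120A (0.10) and NDUFAF4 (0.10). Genes that vary little, such as SALL4 and DPPA2, find near matches more readily on this measure. Within the set the closest pair was NANOG and ZSCAN10 (0.39), and the farthest was SALL4 and L1TD1 (2.71). These distances describe 9 libraries in 3 groups, which share library and depth.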

How the data were processed

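Per the labels' protocols, total RNA of H9 cells lost its ribosomal RNA by depletion, and libraries followed an Ion Torrent total RNA protocol. The authors deposited RPKM values for 38759 RefSeq transcripts in 1 table, and 0 columns belonged to other samples. Per the submitters' processing notes, the tools were TopHat, TopHat2 2.0.13 and Bowtie2 and the build hg19, with no role or order stated. How reads were counted, whether strand was used, how multiply mapped reads were treated and what formed the denominator was not given in the sources used here.

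Each symbol was represented by its transcript with the highest mean. Genes whose mean reached 0.5 RPKM, 14473 in number, entered the test as log2(RPKM + 1) in 1 linear model of all 9 libraries with group as its term (limma 3.58.1, R 4.3.3, mean-variance trend), with calls made where the Benjamini-Hochberg adjusted p was under 0.05. The fit was tested on simulated data. Denominators of reads were estimated from the steps between low values of transcripts of 50 to 150 bases, where 92.4% to 96.6% of the 202 to 279 values a library lay within 0.1 of a whole read. Multiples of a denominator fit alike, and the lowest was taken. The values are not counts, so no count test was run. Samples were grouped by their titles. Same-numbered libraries of neuroectoderm and mesendoderm deviated together from their group means across genes (correlations of 0.39, 0.25 and 0.23 for numbers 1, 2 and 3). Neuroectoderm 3 with mesendoderm 2 (0.24) and neuroectoderm 2 with mesendoderm 3 (0.15) did so too. The values therefore do not settle whether the numbers pair these groups, and the labels do not say. Same-numbered pairs with hESC did not all do so (-0.74 to 0.40).

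Named are the 10 genes, up to 4 genes a list with the largest log2 difference past the threshold against hESC, and the 3 genes most like each tested gene. Likeness was ranked over 9181 genes with at least 5 RPKM in their highest group, leaving out LOC, LINC and small RNA symbols. CBFA2T2, DPPA3, DPPA5, FOXA2, SOX17, LHX2, SIX3, CGA and T were named after their values were seen. The 10 genes, the lists and the tests were chosen with earlier results of these data known. POU5F1 and MBD3 were not analysed here. Alternatives were another pseudocount (0.1), no filter, other scalings, summed transcripts, no trend, only the groups compared, the replicate number as a block and libraries left out. Promoters are from RefSeq (GRCh38.p14), and pseudogenes, overlaps and lengths from GENCODE v29.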

Additional observations from a re-analysis of the deposited data

How the results depend on the processing

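The numbers of the 9 tested genes called, and of all genes called, stayed within 1.5 times the reported counts under every alternative run. When single libraries were left out, 5 to 7 of the 9 were called in mesendoderm against hESC, beside 3640 to 6696 of all 14473 tested genes. In neuroectoderm against hESC 8 of the 9 were called, beside 5055 to 7418 of all. In neuroectoderm against mesendoderm 8 to 9 of the 9 were called, beside 5562 to 7498 of all. The sign of SALL4 in neuroectoderm against hESC turned with quantile normalisation (0.19), without hESC replicate 2, neuroectoderm replicate 1 and mesendoderm replicate 1 (0.022), and with single libraries left out (-0.18 to 0.12). That of ZFP42 in mesendoderm against hESC ran from -0.10 to 0.040 with single libraries left out. None of these was past the threshold, and the cause was not tested. SALL4 in mesendoderm against hESC passed under 8 alternatives and missed the threshold under the others, among them each fit without a single hESC or mesendoderm library. Leaving out small RNA genes and rescaling moved the median of all genes to -0.12 in both comparisons with hESC, and of the genes called 63.1% were then lower in neuroectoderm (50.5% as reported) and 61.9% in mesendoderm (51.6%), with 8 and 7 of the 9 genes lower. With the replicate number as a replicate block 8, 6 and 8 of the 9 genes were called in neuroectoderm against hESC, mesendoderm against hESC and neuroectoderm against mesendoderm, and 5643, 4224 and 6250 of all genes, beside 6393, 5077 and 6965 without it. With only the neuroectoderm and mesendoderm libraries in the fit, an alternative chosen after seeing the data, the block gave 8 of the 9 genes and 6731 of all genes, and it changed no call of the 9 genes. UTF1 differed from hESC by -1.70 in neuroectoderm and -1.17 in mesendoderm at a pseudocount of 0.1, beside -0.34 and -0.24 at 1. Depth limits statements on UTF1 and DPPA2.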
